A study of Mus musculus with 4 samples.

Results

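Necroptosis and inflammatory caspase genes were followed in LPC-HRas cells, a mouse line labelled as liver cancer cells. The 9 genes were chosen by name and function, but with earlier results of these data known. They are Zbp1, Ripk1, Ripk3 and Mlkl of necroptosis, Fadd and Casp8 of death receptor signalling, and Casp1, Casp4 and Gsdmd of pyroptosis. They are 9 of the 55487 annotated genes in the count table. Necroptosis is a lytic form of cell death. The kinase RIPK3 is engaged by RIPK1 or by ZBP1, which senses nucleic acid in the Z conformation, through a shared interaction motif, and it phosphorylates MLKL, which then breaks the plasma membrane. Caspase-8, recruited by FADD, holds this route in check by cleaving RIPK1 and RIPK3 and starts apoptosis when fully active. Pyroptosis is the lytic death in which caspase-1, or the lipopolysaccharide-sensing mouse caspase encoded by Casp4, cleaves gasdermin D into a pore-forming fragment. Several of these genes are known to be induced by interferon, and normal hepatocytes are known to hold little RIPK3.

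Cells with the genotype label control (2 libraries, control 1 and 2) were compared with cells labelled UBXN9-overexpressing (2 libraries, UBXN9 1 and 2), all of them unstimulated and grown in DMEM with fetal bovine serum. All groups share the LPC-HRas background. How UBXN9 was raised, what the controls carried in its place, and whether the overexpressing cells were 1 clone or separate cultures are not given in the sources used here, so the p-values speak only of how these libraries varied, which may be technical. UBXN9 is encoded in the mouse by Aspscr1.

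Totals ran from 21814969 to 26292686 estimated counts per library. Levels are in CPM, the share of a library's counts times a fixed factor, after TMM correction for composition. Aspscr1 had 92.1 and 115 CPM in control 1 and 2 and 392 and 380 CPM in UBXN9 1 and 2, a 3.72-fold rise (edgeR adjusted p = 0.00144). Of 12 biliary and liver progenitor markers Spp1 (2198 to 2991 CPM) and Sox9 (168 to 208 CPM) were abundant, while Prom1 was at 0 counts in all libraries. Of the 7 tested, 3 were lower in UBXN9-overexpressing cells (Krt18, Krt19 and Cd24a) and 0 higher. Of 7 tested endothelial and stellate markers 2 were higher (Col1a1 and Acta2) and 0 lower. Among all genes tested, edgeR called 5.06% higher and 2.38% lower. Of 9 hepatocyte markers 3 were at 0 throughout, Alb among them, and their summed level stayed between 0.544 and 1.47 CPM. The libraries of a group differed in a way that followed transcript length. Across genes, control 2 minus control 1 had a Spearman correlation of -0.325 with exon length, UBXN9 2 minus UBXN9 1 one of 0.423, and the difference between groups one of 0.000279. Rn7sk, a short nuclear RNA that is not polyadenylated, was read at 1.68 and 2.31 CPM in control 1 and 2 and at 5.48 and 26.4 CPM in UBXN9 1 and 2. The part of these differences in the results was not tested.

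The question was which of these genes differ in level when UBXN9 is raised. With edgeR, Zbp1, Ripk3, Mlkl, Casp1 and Casp4 rose, which is 5 of the 9 genes, and 0 fell. DESeq2 and limma-voom also called 5 higher and 0 lower, and at an unadjusted p under 0.05 edgeR had 6 higher and 0 lower. Ripk1, Fadd, Casp8 and Gsdmd did not pass. Casp1, with 3 and 1 counts in the controls, was deep enough to test only through its UBXN9 libraries. The filter thus all but fixed the direction in which Casp1 could be called. Of all 13230 genes tested with edgeR, 7.44% were called in either direction, 5.06% higher and 2.38% lower. For the 9 genes the median log2 fold change came to 1.18, against -0.0056 over all genes tested. In 7 of the 9 genes both UBXN9 libraries lay above both controls, a pattern found in 25.0% of the tested genes. The groups failed to overlap, in either direction, in 50.6%. The genes were chosen with earlier results of these data known, so these counts describe them and are no test of the group. With 2 libraries a group, the smallest two-sided p of an exact permutation test of a single gene is 0.333.

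Zbp1 (ENSMUSG00000027514, chromosome 2, 173206612 to 173218923, minus strand, build GRCm38) was at 20.2 and 18.1 CPM in control 1 and 2, against 517 and 397 CPM in UBXN9 1 and 2. Every UBXN9 library was far above every control. The mean went from 19.2 ± 1.5 to 457 ± 84.7 CPM (SD, n = 2), a log2 fold change of 4.58 with an SE of 0.22 (edgeR adjusted p = 0.00022). The rise was between 20.9-fold and 27.0-fold with each library left out in turn. Among the 20 tested genes closest to Zbp1 on chromosome 2, 2 rose, 0 fell and the median was 0.096 on the log2 scale.

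Of the kinases that pass the signal on, Ripk3 rose and Ripk1 did not pass. Ripk3 (ENSMUSG00000022221, chromosome 14, 55784995 to 55788865, minus strand) had 20 and 11 counts in control 1 and 2 and 86 and 101 in UBXN9 1 and 2. As levels these were 0.763 and 0.499 CPM against 4.28 and 3.81 CPM. The groups did not overlap, and the log2 fold change was 2.66 (SE 0.38, adjusted p = 0.00787), a 6.31-fold rise from a low level. Ripk1 (ENSMUSG00000021408, chromosome 13, 34002363 to 34037147, plus strand) had 31.6 and 25.3 CPM in the controls and 32.8 and 43.7 CPM in UBXN9 1 and 2. Both UBXN9 values were above both controls, but UBXN9 1 exceeded control 1 by little, and the log2 fold change of 0.43 (SE 0.21) did not pass (adjusted p = 0.309). Without UBXN9 1 the value was 0.62 and passed (adjusted p = 0.0149), and without UBXN9 2 it was 0.20 (adjusted p = 0.53). Exons of Ripk1 overlap those of Serpinb6a on the opposite strand, and the handling of strand is not given in the sources used here. Serpinb6a was more abundant (120 to 134 CPM) and had a log2 fold change of -0.13, and without strand the reads of the pair cannot be told apart there.

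Mlkl, the membrane-breaking executor (ENSMUSG00000012519, chromosome 8, 111311797 to 111338177, minus strand), was the most abundant of the 9 genes in control cells. It had 59.1 and 54.5 CPM in control 1 and 2 and 189 and 184 CPM in UBXN9 1 and 2. The libraries of a group lay close together and the groups were well apart. The mean went from 56.8 ± 3.29 to 187 ± 3.49 CPM (SD, n = 2), a log2 fold change of 1.72 (SE 0.15, adjusted p = 0.00113). Genes of chromosome 8 as a whole stood higher in UBXN9-overexpressing cells, with a median log2 fold change of 0.31 over 732 tested genes, and the 20 tested neighbours of Mlkl had a median of 0.31. The part of this shift in the Mlkl result was not tested.

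**Figure D1:**
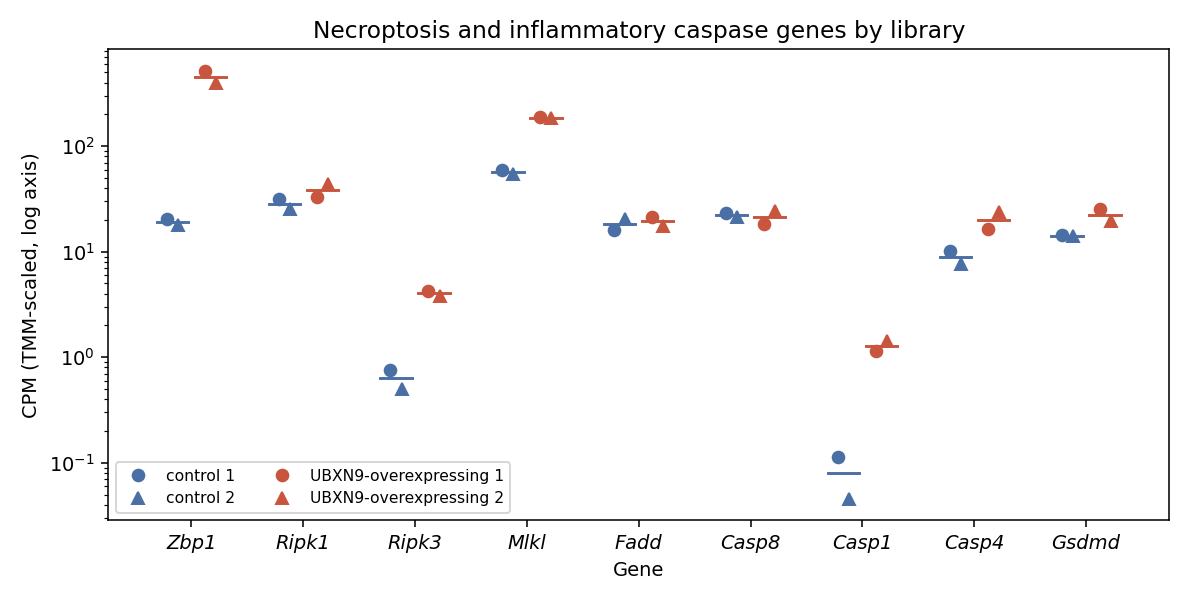
Level of each of the 9 genes in each library, in CPM on a log axis. Circles are replicate 1, triangles replicate 2, and bars the group means. Zbp1, Ripk3, Mlkl, Casp1 and Casp4 lie higher in the UBXN9-overexpressing libraries, while Fadd and Casp8 overlap between groups.

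The upstream windows of these genes are shown because the members that rose and those that did not pass can be compared in them for interferon and NF-kB response motifs. RefSeq gave windows for 7 of the 9 genes, with no entry for Zbp1 and Gsdmd, and 9 windows in all. The 250 bases before the start are printed for 5 of the genes, chosen after their values were seen, 5′ to 3′ on the gene's strand, build GRCm38.p6. Motifs were searched on both strands: the core of the interferon-stimulated response element (GAAA, any 2 bases, GAAA), AANNGAAA (the shorter site of interferon regulatory factors, which the core contains), TTCNNNGAA (the gamma-activated site of STAT factors) and the NF-kB consensus. Capitals mark every match. The Ripk3 window (chr14:55788858-55789107, minus strand) and the Mlkl window (chr8:111338206-111338455, minus strand) held none of the 4 motifs. The second Ripk1 window (chr13:34002624-34002873, plus strand) held TTCNNNGAA at 2 places. The Casp8 window (chr1:58802252-58802501, plus strand) held AANNGAAA at 2 places, and the upstream one of the Casp4 windows (chr9:5308599-5308848, plus strand) held AANNGAAA at 1 place and the NF-kB consensus at 3, of which those starting at -93 and -92 overlap and the other starts at -39.
Ripk3: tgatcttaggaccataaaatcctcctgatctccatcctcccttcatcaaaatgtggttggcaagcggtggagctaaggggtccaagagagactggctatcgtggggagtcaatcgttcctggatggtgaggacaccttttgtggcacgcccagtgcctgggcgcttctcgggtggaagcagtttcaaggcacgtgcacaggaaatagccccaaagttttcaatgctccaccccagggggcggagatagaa
Mlkl: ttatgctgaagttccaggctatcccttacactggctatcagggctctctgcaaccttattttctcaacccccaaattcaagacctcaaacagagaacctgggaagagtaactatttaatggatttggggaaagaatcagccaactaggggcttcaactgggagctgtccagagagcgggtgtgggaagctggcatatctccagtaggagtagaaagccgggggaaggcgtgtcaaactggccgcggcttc
Ripk1: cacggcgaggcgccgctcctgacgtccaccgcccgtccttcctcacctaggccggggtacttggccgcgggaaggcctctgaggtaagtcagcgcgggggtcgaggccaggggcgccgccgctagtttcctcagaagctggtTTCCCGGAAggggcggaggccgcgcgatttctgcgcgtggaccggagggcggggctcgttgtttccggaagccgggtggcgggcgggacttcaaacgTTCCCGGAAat
Casp8: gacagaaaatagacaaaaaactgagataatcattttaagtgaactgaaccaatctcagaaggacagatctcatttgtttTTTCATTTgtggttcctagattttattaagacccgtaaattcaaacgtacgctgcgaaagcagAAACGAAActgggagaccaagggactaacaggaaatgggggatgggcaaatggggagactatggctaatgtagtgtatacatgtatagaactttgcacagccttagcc
Casp4: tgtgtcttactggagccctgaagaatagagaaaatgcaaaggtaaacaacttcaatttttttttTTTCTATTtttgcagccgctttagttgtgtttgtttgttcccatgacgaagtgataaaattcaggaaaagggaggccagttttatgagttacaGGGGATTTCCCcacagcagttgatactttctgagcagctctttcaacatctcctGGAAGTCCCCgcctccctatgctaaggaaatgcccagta
The interferon-stimulated response element core was in 0 of the 9 windows and in 2.97% of all 32817 RefSeq windows of this length. AANNGAAA was in 3 of the 9 windows, against 21.3% of all, and the NF-kB consensus in 2, both of Casp4 and overlapping each other, against 7.25%. TTCNNNGAA was in 1 of the 9, against 7.01%. Matches were thus found in a gene that rose (Casp4) and in genes that did not pass (Ripk1 and Casp8). A match is only a run of letters in this window and was not tested for binding.

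The adaptor and the caspase of the death receptor complex did not pass. Fadd (ENSMUSG00000031077, chromosome 7, 144577318 to 144582463, minus strand) had 16.1 and 20.5 CPM in the controls and 21.4 and 17.5 CPM in UBXN9 1 and 2. The libraries of both groups interleaved, with a log2 fold change of 0.087 (SE 0.22, adjusted p = 0.886), whose sign changed with the setting. Casp8 (ENSMUSG00000026029, chromosome 1, 58795374 to 58847503, plus strand) had 23.4 and 21.5 CPM in the controls and 18.4 and 24.1 CPM in UBXN9 1 and 2. Both UBXN9 values lay outside the control range, 1 below and 1 above, and the log2 fold change was -0.081 (SE 0.21, adjusted p = 0.886). Cflar, the caspase-8-like inhibitor cFLIP, had 30.1 and 26.4 CPM against 26.1 and 39.9 CPM and did not pass (adjusted p = 0.661).

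The other caspases given here did not pass. Casp6, whose product acts late in apoptosis, had 66.8 and 70.7 CPM in the controls and 53.8 and 38.4 CPM in UBXN9 1 and 2. Both UBXN9 values lay below both controls, and the log2 fold change was -0.58 (SE 0.20, adjusted p = 0.152). Without UBXN9 1 the value for Casp6 was -0.83 and passed (adjusted p = 0.000714). The initiators Casp2 and Casp9 had log2 fold changes of 0.17 and 0.13 (adjusted p = 0.756 and 0.755). Casp14, of the epidermis, was listed at 0 in every library.

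Of the inflammatory caspases, Casp1 rose from near absence and Casp4 by a smaller factor from a higher level. Casp1 (ENSMUSG00000025888, chromosome 9, 5298517 to 5307265, plus strand), the caspase that matures interleukin-1 beta and interleukin-18, had 3 and 1 counts in control 1 and 2 and 23 and 38 in UBXN9 1 and 2. Casp1 was deep enough to test only through its UBXN9 libraries, so it could hardly have been called lower. Its mean went from 0.0799 ± 0.0489 to 1.29 ± 0.204 CPM (SD, n = 2), a 14.8-fold rise with an SE of 0.64 on the log2 scale (adjusted p = 0.0141). So few control counts leave its size loose: the rise was 25.5-fold without control 1 and 10.9-fold without control 2, and the call held in both (adjusted p = 0.0159 and 0.0273). Casp4 (ENSMUSG00000033538, chromosome 9, 5308828 to 5336783, plus strand) had 10.1 and 7.67 CPM in the controls and 16.4 and 23.8 CPM in UBXN9 1 and 2. The groups did not overlap, and the rise was 2.26-fold (log2 1.18, SE 0.27, adjusted p = 0.0467). That call was close to the threshold: it was lost without control 1 (adjusted p = 0.0592), without control 2 (0.231), with library size alone as the scaling (0.119) and with a filter of 5 CPM in 2 libraries (0.0575). Casp12, the third gene of the same chromosome 9 cluster (5345430 to 5373032), had 2.82 and 2.31 CPM in the controls and 1.99 and 5.09 CPM in UBXN9 1 and 2. It did not pass (adjusted p = 0.629), while without UBXN9 1 its value was 0.99 and passed (adjusted p = 0.0322).

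Gsdmd, the pore former that both inflammatory caspases cleave (ENSMUSG00000022575, chromosome 15, 75862327 to 75867408, plus strand), had 14.5 and 14.0 CPM in the controls and 25.5 and 19.5 CPM in UBXN9 1 and 2. Both UBXN9 libraries were above both controls, but they differed from each other by more than the controls did. The log2 fold change of 0.66 (SE 0.21) did not pass (adjusted p = 0.127). It was 0.84 without UBXN9 2 and passed (adjusted p = 0.00307). Gsdme, another gasdermin, had means of 39.6 and 37.1 CPM and did not pass (adjusted p = 0.831). Ninj1, which ruptures the membrane at the end of lytic death, had means of 55.2 and 71.3 CPM (log2 fold change 0.37, adjusted p = 0.256), and without UBXN9 2 its value was 0.48 and passed (adjusted p = 0.0452).

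Of 18 inflammasome sensors and adaptors 8 were deep enough to test, and 2 rose and 0 fell, beside 7.44% of all genes tested called in either direction. Of these 2, Aim2 was deep enough to test only through its UBXN9 libraries. Aim2, a sensor of cytosolic DNA, had 11 and 3 counts in control 1 and 2 and 37 and 62 in UBXN9 1 and 2, a 7.23-fold rise (log2 2.85, SE 0.56, adjusted p = 0.0282). It was 14.8-fold without control 1 and lost its call without control 2 (adjusted p = 0.0705). Nlrp3 was read with 13 and 18 counts in control 1 and 2 and 52 and 56 in UBXN9 1 and 2, a 3.58-fold rise (adjusted p = 0.0491). That call was lost without either control (adjusted p = 0.328 and 0.067) and with DESeq2 (0.0956). Pycard, which encodes the adaptor ASC that links such sensors to caspase-1, had 0 counts in both controls and 1 and 3 in UBXN9 1 and 2. Nlrp1b had 1 count, in UBXN9 2. At this depth a difference in either was not detectable.

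The interleukin genes linked to pyroptosis, and those that restrain them, were mostly low. Il18 had 0 counts in both controls and 11 in each UBXN9 library, at least 7.59-fold higher against a floor of 3 counts over the controls. Il18bp, the secreted protein that neutralizes interleukin-18, had 1.45 and 0.862 CPM in the controls and 13.5 and 11.6 CPM in UBXN9 1 and 2, and rose 10.7-fold (log2 3.42, SE 0.33, adjusted p = 0.00156). Il1b had 4 counts, all in UBXN9 1, and Il1a had 1 and 5 counts in control 1 and 2 and 14 and 16 in UBXN9 1 and 2 (adjusted p = 0.148). Il33, a cytokine freed by lysed cells, was at 15.8 and 16.0 CPM on average (adjusted p = 0.98). Hmgb1, of the same list, was abundant, with 442 and 453 CPM in control 1 and 2 and 409 and 269 CPM in UBXN9 1 and 2. Both UBXN9 values lay below both controls, and Hmgb1 did not pass (log2 -0.40, edgeR adjusted p = 0.371). In this list, which also holds gasdermins and Ninj1, 1 of 8 tested genes rose and 0 fell, beside 7.44% called in either direction among all genes tested. That 1 is Il18bp, an inhibitor rather than a pore former or cytokine.

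**Figure D2:**
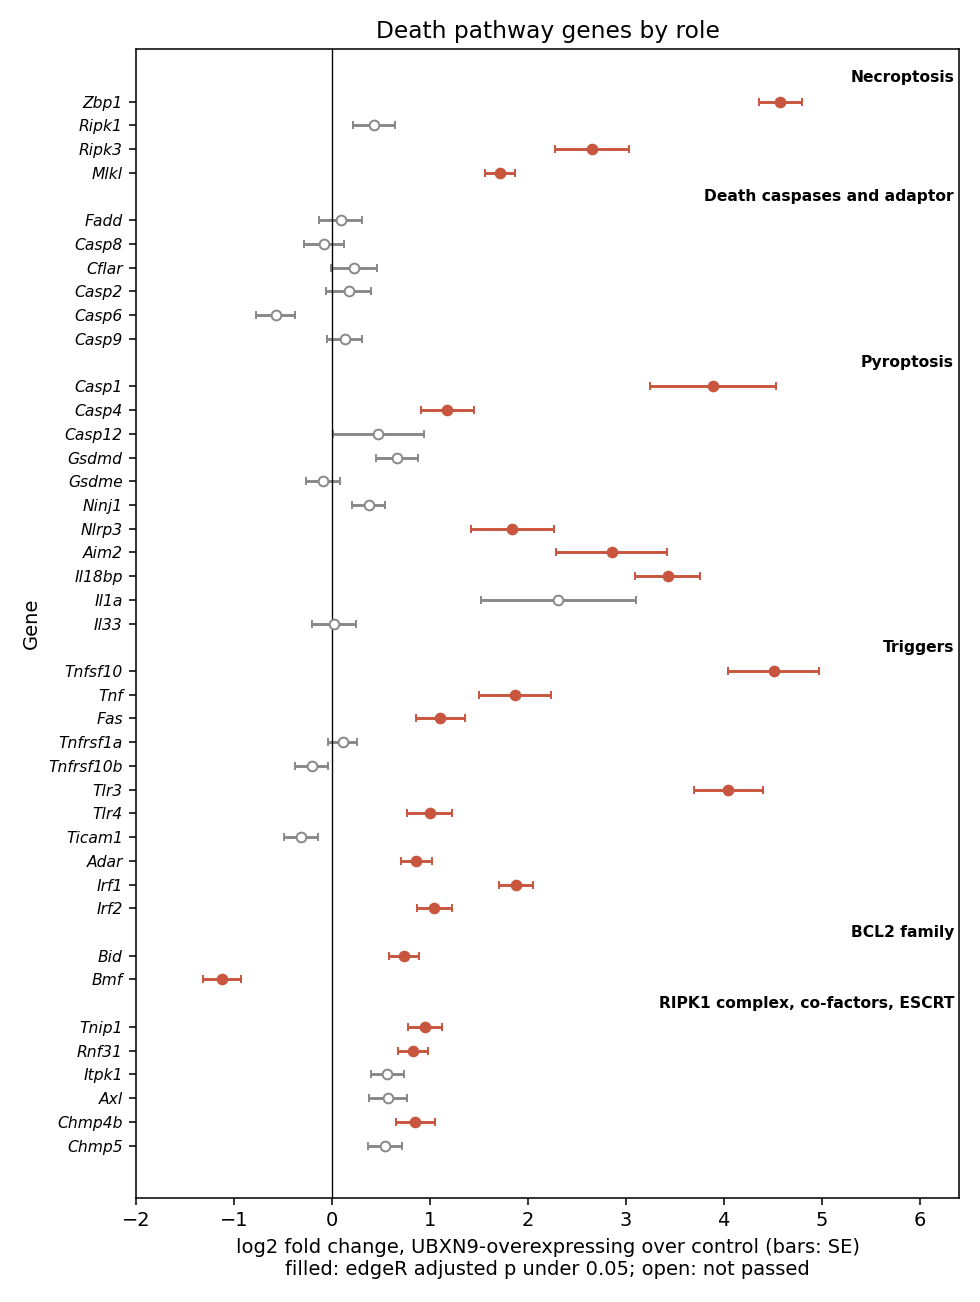
Log2 fold change of UBXN9-overexpressing over control cells for the named death pathway genes that were tested, grouped by role, with the SE as bars. Filled red points passed an edgeR adjusted p of 0.05. Zbp1, Tnfsf10 and Tlr3 lie above 4, and Bmf is the filled point below 0.

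Upstream of the 9 genes, death ligands and receptors had 3 of 10 tested members higher and 0 lower. Among all genes tested 5.06% were called higher and 2.38% lower. Tnfsf10, which encodes the death ligand TRAIL, had 0.305 and 0.953 CPM in the controls and 14.3 and 13.9 CPM in UBXN9 1 and 2. With 8 counts in control 1, Tnfsf10 was deep enough to test only through its UBXN9 libraries. It rose 22.8-fold (log2 4.51, SE 0.46, adjusted p = 0.00213), 14.7-fold without control 1 and 45.6-fold without control 2. Its mouse receptor gene Tnfrsf10b had means of 27.2 and 23.5 CPM and did not pass (adjusted p = 0.55). Tnf, whose product can start necroptosis, had 0.801 and 0.817 CPM in the controls and 3.33 and 2.60 CPM in UBXN9 1 and 2 and rose 3.64-fold (adjusted p = 0.0282), a call lost without either control (adjusted p = 0.138 and 0.0991). Its receptor gene Tnfrsf1a had means of 194 and 209 CPM (adjusted p = 0.759). Fas, a death receptor, had 9.81 and 11.6 CPM in the controls and 27.2 and 18.8 CPM in UBXN9 1 and 2 and rose 2.15-fold (adjusted p = 0.0448). The Fas call was lost without either control (adjusted p = 0.235 and 0.0726), with library size alone (0.0673) and with limma-voom (0.0509). Its ligand gene Fasl was listed at 0 in every library.

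Genes that trigger or tune the necroptosis sensors had 5 of 12 tested members higher and 0 lower, beside 5.06% higher and 2.38% lower among all genes tested. Tlr3, a receptor in endosomes that binds double-stranded RNA and can reach RIPK3 through the adaptor TRIF, had 3.66 and 2.36 CPM in the controls and 36.7 and 63.3 CPM in UBXN9 1 and 2, a 16.5-fold rise (adjusted p = 0.00104). Ticam1, which encodes TRIF, had 25.6 and 25.3 CPM against 19.7 and 21.1 CPM and did not pass (adjusted p = 0.358). Irf1, a transcription factor of the interferon response, had 115 and 116 CPM in the controls and 463 and 381 CPM in UBXN9 1 and 2, a 3.67-fold rise (adjusted p = 0.00136). Adar, an RNA-editing enzyme that limits ZBP1 activation, rose 1.81-fold from 182 ± 7.94 to 330 ± 18.1 CPM (SD, n = 2, edgeR adjusted p = 0.0207). Irf2 rose 2.06-fold (adjusted p = 0.0147) and Tlr4 1.99-fold (adjusted p = 0.0488). The calls of Adar and Tlr4 were lost without either control (adjusted p = 0.178 and 0.21 for Adar, 0.207 and 0.444 for Tlr4), and that of Irf2 without control 2 (adjusted p = 0.12). Tlr3 and Irf2 lie on chromosome 8, with its median of 0.31, and Tlr4 on chromosome 4, where the median was 0.27.

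Genes that control RIPK1 in the TNF receptor complex were called in 2 of 25 tested cases, all higher, a share near the 7.44% called among all genes tested. The median over the 25 was 0.27 on the log2 scale. Tnip1, a ubiquitin-binding partner of A20, rose from 75.2 ± 7.01 to 145 ± 19.0 CPM (SD, n = 2; log2 0.95, edgeR adjusted p = 0.02). Rnf31, the catalytic subunit of the linear ubiquitin ligase, rose from 51.1 ± 1.49 to 90.6 ± 5.06 CPM (log2 0.83, adjusted p = 0.0214). Rnf31 lost its call without either control (adjusted p = 0.182 and 0.21), and Tnip1 without control 1 (0.185). Of 14 necroptosis co-factors 0 passed with edgeR (2 higher and 1 lower at an unadjusted p under 0.05), 1 passed with DESeq2 and 0 with limma-voom. The smallest adjusted p values were those of Itpk1, an inositol phosphate kinase (log2 0.56, 0.102), and of the receptor kinase gene Axl (log2 0.57, 0.142). Axl passed with DESeq2 (adjusted p = 0.0354) and without UBXN9 1 (0.0278), and Itpk1 without UBXN9 2 (0.0108). Of 13 tested ESCRT genes, whose products mend MLKL and gasdermin lesions, 1 rose and 0 fell, again a share near the 7.44% of all genes. That was Chmp4b, with 319 and 324 CPM in the controls and 664 and 493 CPM in UBXN9 1 and 2 (log2 0.85, adjusted p = 0.0496), a call lost without either control (adjusted p = 0.302 and 0.214). Chmp5, on chromosome 4 with its median of 0.27, did not pass (log2 0.54, adjusted p = 0.119). Without UBXN9 1 the value for Chmp5 was 0.65.

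Of 16 tested genes of the mitochondrial arm of cell death 2 were called, 1 higher and 1 lower, beside 7.44% called among all genes tested. So few calls describe these 2 genes and not the arm as a whole. Bid, the link that caspase-8 cleaves to engage mitochondria, rose from 46.4 ± 0.653 to 77.1 ± 4.13 CPM (SD, n = 2; log2 0.73, edgeR adjusted p = 0.0352). Bmf, a pro-death BH3-only protein, had 27.0 and 29.6 CPM in the controls and 12.2 and 13.7 CPM in UBXN9 1 and 2, with a log2 fold change of -1.13 (SE 0.19) and an adjusted p of 0.0151. Both calls were lost without either control, with adjusted p values of 0.332 and 0.273 for Bid and 0.0576 and 0.113 for Bmf. Over all these pathway lists, with each gene counted once and the 9 genes left out, 16 of 111 tested genes rose and 1 fell, with a median of 0.14 on the log2 scale, beside 7.44% called among all genes. The count of called genes was 8 and 6 without control 1 and 2, and 32 and 30 without UBXN9 1 and 2.

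Levels can be compared between genes per length of exon. In control cells Mlkl stood highest with 24.7 CPM per kb of exon, then Casp8 with 7.77, Gsdmd with 5.98, Zbp1 with 5.43, Fadd with 4.69, Ripk1 with 3.41, Casp4 with 2.40, Ripk3 with 0.275 and Casp1 with 0.0534 CPM per kb. Of neighbours in that order, those whose libraries overlapped were Zbp1 and Fadd. In UBXN9-overexpressing cells Zbp1 stood highest with 130 CPM per kb (112.6 to 147), ahead of Mlkl with 81.1. Gsdmd, Casp8, Casp4, Fadd and Ripk1 followed between 9.47 and 4.58 CPM per kb, and each overlapped its neighbour. Ripk3 with 1.76 and Casp1 with 0.861 CPM per kb remained the lowest of the 9.

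The RNA levels of the partner genes relative to Ripk3 restate the fold changes above, since Ripk3 is the denominator of each ratio. Ripk3 rose 6.31-fold, above the fold changes of Casp8, Ripk1 and Mlkl and below that of Zbp1. Protein was not measured here, and Ripk3 had only 20 and 11 counts in control 1 and 2. Per kb of exon, Casp8 exceeded Ripk3 24.3-fold and 34.2-fold in control 1 and 2, and 3.41-fold and 5.00-fold in UBXN9 1 and 2. Ripk1 exceeded Ripk3 11.4-fold and 13.9-fold in the controls and 2.1-fold and 3.15-fold in UBXN9 1 and 2. Mlkl exceeded it 77.1-fold and 109-fold in the controls and 44.0-fold and 48.2-fold in UBXN9 1 and 2. In each of these ratios the UBXN9 libraries lay below both controls. Zbp1 went the other way, with 17.2-fold and 23.6-fold in the controls and 78.5-fold and 67.8-fold in UBXN9 1 and 2. These ratios are descriptions with no test of their own.

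**Figure D3:**
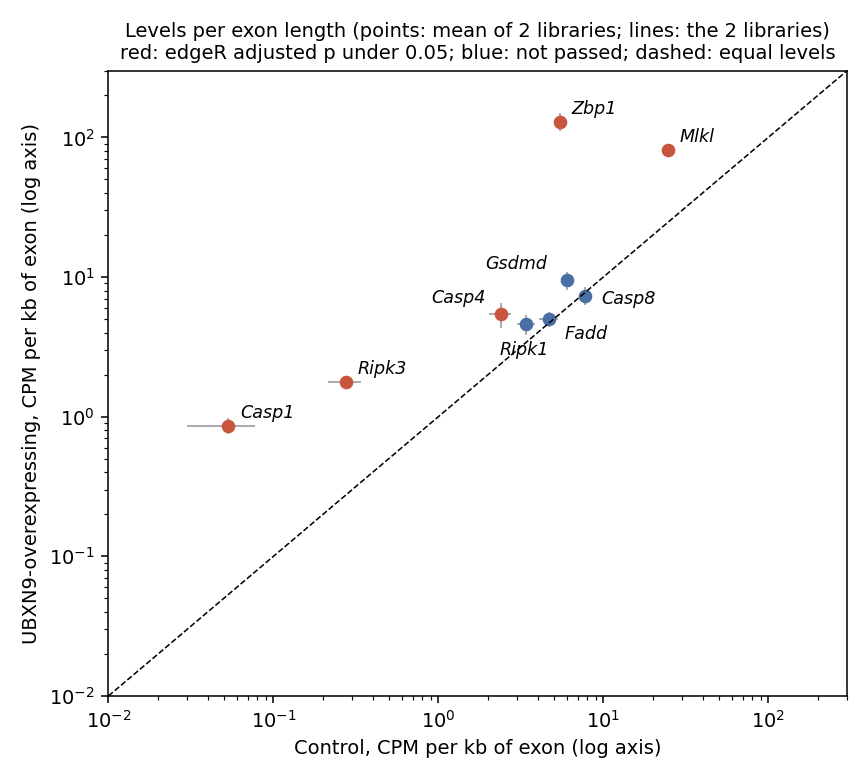
Mean level of each of the 9 genes per kb of exon in control (horizontal) and UBXN9-overexpressing cells (vertical), both on log axes. Grey lines join the 2 libraries of a group, red points passed the edgeR test, and the dashed line marks equal levels. Ripk3 and Casp1 lie far above the line but at the low end of both axes, while Casp8 and Fadd lie on or next to it.

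The search covered 9883 other tested genes with at least 5 CPM on average over the 4 libraries. Genes with the most similar profile were sought by Euclidean distance of log2 CPM over these libraries, centred on the control mean. For Zbp1 they were H2-K1 (distance 0.333), Gbp9 (0.428) and Mx1 (0.431). For Mlkl they were Bmper (0.112), Rbm43 (0.123) and Asb4 (0.135), with log2 fold changes of 1.72, 1.69 and 1.76. For Ripk1 they were BC005537 (0.016), Steap2 (0.0552) and Stx17 (0.0594), none of which passed (adjusted p = 0.289, 0.278 and 0.358). H2-K1 (2.21 and 2.45 CPM), Gbp9 (1.26 and 1.18 CPM) and Bmper (3.32 and 3.04 CPM) were below 5 CPM in control 1 and 2. They entered the search through their UBXN9 levels.

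Casp1, Casp4, Ripk3 and Mlkl are also expressed by macrophages, so myeloid and lymphoid markers are given beside them. Of 16 myeloid markers 2 were at 0 in every library, 5 were tested and 1, Lyz2, rose (0.871 ± 0.333 to 3.11 ± 0.0314 CPM, SD, n = 2, edgeR adjusted p = 0.0408). Among all genes tested 5.06% were called higher. The summed level of the 16 was 58.7 and 58.8 CPM in the controls and 79.8 and 68.7 CPM in UBXN9 1 and 2, most of it Cd14. Of the defining markers Ptprc had 0, 0, 3 and 1 counts in control 1, control 2, UBXN9 1 and UBXN9 2, and Adgre1 had 0, 0, 4 and 0. Tyrobp had 1, 0, 16 and 0 counts and Laptm5 2, 1, 31 and 4 in the same order, so that UBXN9 1 stood apart in these genes. Lyz2 did not share this pattern, with 3.14 and 3.09 CPM in UBXN9 1 and 2. Without UBXN9 1 the log2 fold change of Casp1 was 4.05, that of Ripk3 2.58 and that of Mlkl 1.71, values that rest on UBXN9 2 alone. Whether myeloid cells had a part in these rises was not tested. Of 14 lymphoid markers 6 were at 0 in every library, Cd3e among them, and their summed level was 5.23 and 4.72 CPM in the controls and 11.1 and 9.80 CPM in UBXN9 1 and 2, nearly all of it Lck. In bulk RNA a change in the number of cells and a change in RNA per cell cannot be told apart.

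Under other settings the calls among the 9 genes were read beside those of all genes. With RLE factors, no filter, DESeq2, limma-voom and the replicate block 5 of the 9 were called, where 7.63%, 8.04%, 9.42%, 7.39% and 7.04% of all genes tested were. With library size alone 4 of the 9 were called (5.68% of all genes), and with 5 CPM in 2 libraries 2 of 7 tested (7.26%). Without control 1 or control 2 it was 4 of the 9 each (4.63% and 4.76% of all genes). Without UBXN9 1 or UBXN9 2 it was 6 of the 9 each (19.0% and 21.0%), with Ripk1 added in the first case and Gsdmd in the second. With the replicate numbers crossed, a fit chosen after seeing the data, 7 of the 9 were called (23.7%). Zbp1 and Mlkl were called in all of these fits.

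**Figure D4:**
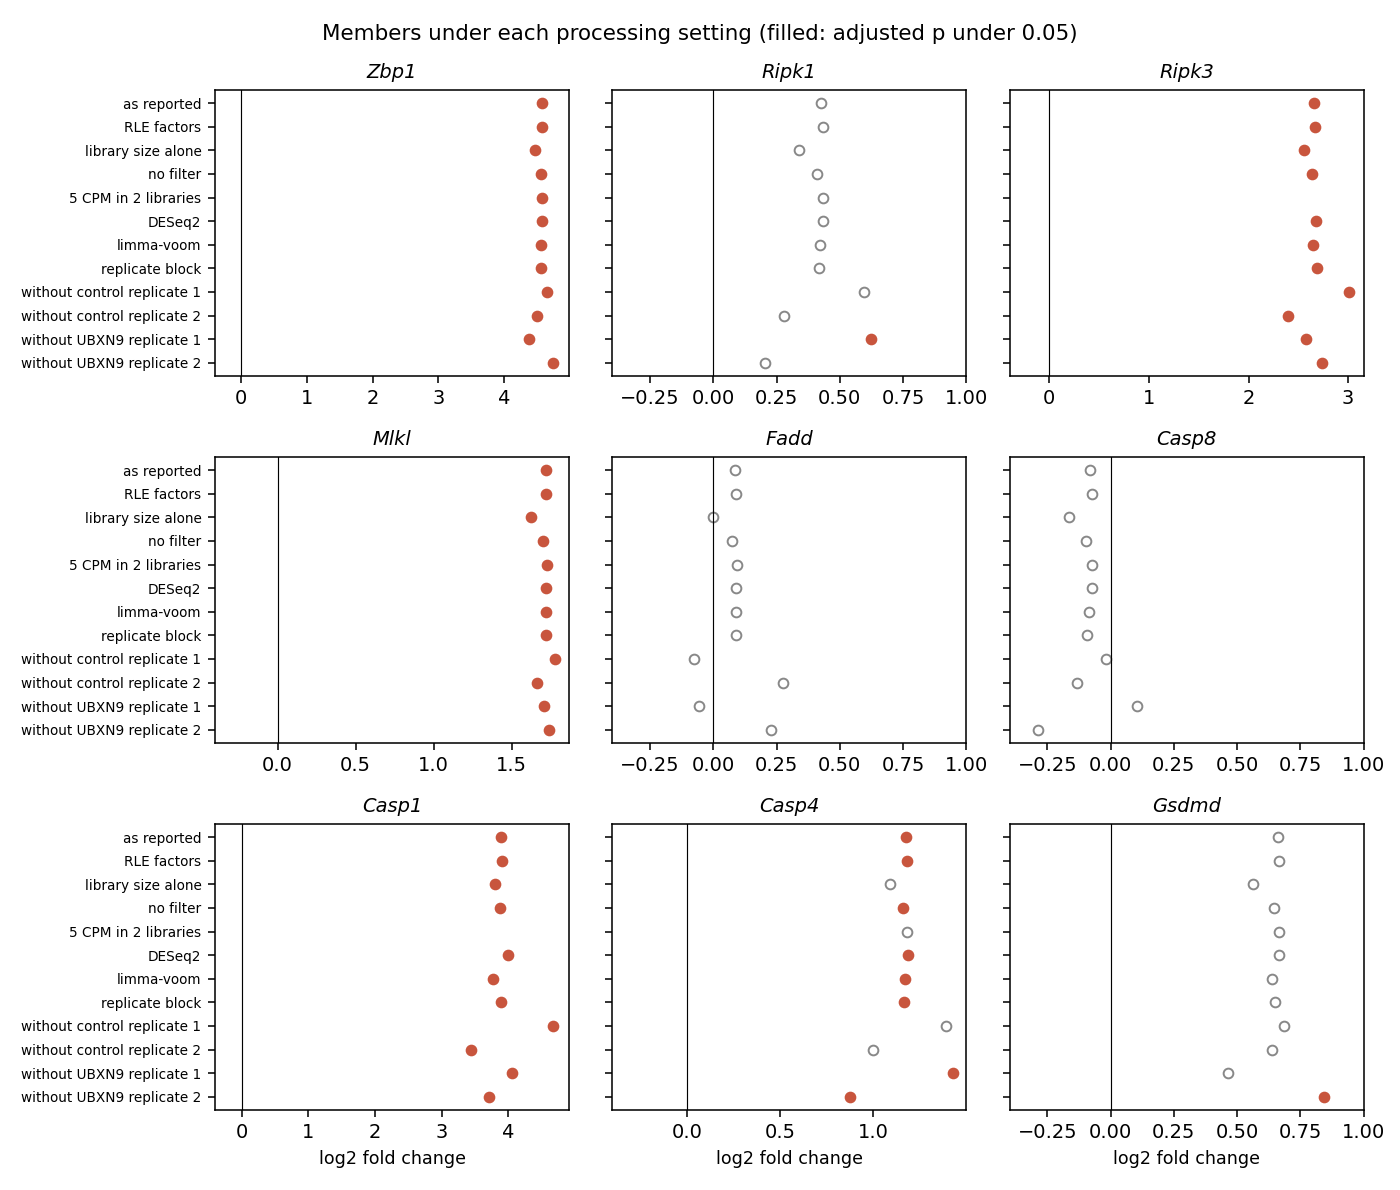
Log2 fold change of each of the 9 genes under each processing setting, with filled points where the adjusted p was under 0.05. Zbp1 and Mlkl stay filled in all 12 rows, Ripk3 and Casp1 in all rows where they were tested, Casp4 loses its call in 4, and Fadd and Casp8 stay near 0.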

How the data were processed

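RNA was sequenced from 2 control and 2 UBXN9-overexpressing libraries with the TruSeq RNA kit on an Illumina HiSeq instrument, per the labels' protocols. The authors deposited estimated counts per gene, one column per library and not scaled to a common total. The submitters' processing notes name HISAT2 2.1.0, HTSeq and GRCm38.p6. Settings, annotation and strand handling are not given in the sources used here. Of 55728 entries 241 were loci outside the annotation (0.302% to 0.535% of counts) and were left out. The other 55487 were rounded, and 55227 matched GENCODE M21 (GRCm38), which gave symbols, positions and exon lengths (union of all exons of a gene).

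Groups were compared in R 4.3.3 with edgeR 4.0.16: TMM factors, filterByExpr, a quasi-likelihood F test of the group (two-sided), and Benjamini-Hochberg adjustment over the 13230 genes tested, called at 0.05. SE is the log2 fold change divided by the square root of F. Exact 0s used a floor of 3 counts over the group, which covers counting error only. Same-numbered libraries did not deviate together (correlation -0.373), so no block was used. Alternatives were RLE factors, library size alone, no filter, 5 CPM in 2 libraries, DESeq2 1.42.0, limma-voom (limma 3.58.1), a replicate block and each library left out, with the tested genes kept. The procedure was checked on simulated data. Promoter windows are RefSeq's, GRCm38.p6. Figures were drawn with matplotlib 3.10.9.

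The 9 genes and the pathway lists were chosen with earlier results of these data known. Named were Aspscr1, the 9 genes, the other caspases, of each other pathway list the called genes with the smallest p up to 5 (or, with fewer than 2 called, the 2 smallest), a set of 18 fixed pathway genes, the 3 nearest profiles of Zbp1, Mlkl and Ripk1, and markers. Fasl, Hmgb1, Spp1, Sox9, Prom1 and single markers were named after their values were seen. Some genes of these lists are not reported here by name.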

Additional observations from a re-analysis of the deposited data

How the results depend on the processing

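Of 50 named genes tested, 28 were called, and 15 of those kept their call in every alternative that tested them. These were Zbp1, Mlkl, Ripk3, Casp1, Tlr3, Irf1, Tnfsf10 and Il18bp, with Aspscr1 and the nearest profiles of Zbp1 and Mlkl (H2-K1, Gbp9, Mx1, Bmper, Rbm43 and Asb4). Many genes were named for a small p or a profile near a member, so these counts follow from that choice and do not describe the pathways. The count of changed genes was 984, and 1827 with no filter, and it ran from 613 to 2776 with each library left out. Of the 9 genes between 4 and 6 were called with a library left out, and 2 with 5 CPM in 2 libraries, where Ripk3 and Casp1 were not tested. Of other pathway genes 17 were called, 10 with library size alone, and 6 to 32 with a library left out. With the replicate block 932 genes and 5 of the 9 were called, and Adar, Tlr4, Rnf31, Chmp4b and Bid lost their calls (adjusted p = 0.0652, 0.111, 0.0585, 0.121 and 0.125). With the numbers crossed, chosen after seeing the data, the counts were 3137 genes, 7 of the 9 and 38 pathway genes. Library size alone ended the calls of Irf2, Tlr4, Rnf31, Aim2, Nlrp3 and Bid (0.0539, 0.101, 0.0576, 0.0641, 0.0724 and 0.0552), besides Casp4 and Fas, and the filter of 5 CPM that of Tlr4 (0.0544). Signs changed only for genes that were not called. With library size alone Fadd was at -0.0035 and Il33 at -0.067. With each library left out, Fadd ran from -0.077 to 0.27 (negative without control 1 and, at -0.056, without UBXN9 1), Il33 from -0.18 to 0.25 (negative without control 1 and, at -0.0078, without UBXN9 1) and Casp8 from -0.29 to 0.11, changing sign without UBXN9 1. Without UBXN9 2 the sign changed for Casp2 (-0.17 to 0.44), Casp12 (-0.37 to 0.99), Gsdme (-0.25 to 0.052) and Cflar (-0.12 to 0.50). The cause of these changes was not tested. Fits without a UBXN9 library rest on the control pair, whose median absolute log2 difference was 0.199, against 0.313 for the UBXN9 pair. Low counts limit the values of Nlrp1b, Pycard, Il1b, Il18, Il1a, Mefv, Casp1 and Aim2, among others.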

Other observations

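Some genes of the same pathways stood just outside the threshold and were chosen after their values were seen. Cyld, the deubiquitinase that favours RIPK1-driven death, had 21.5 and 18.6 CPM in the controls and 34.4 and 32.7 CPM in UBXN9 1 and 2 (log2 0.74, edgeR adjusted p = 0.0528). Tnfrsf1b, the second TNF receptor, had 97.8 and 98.9 CPM in the controls and 133 and 156 CPM in UBXN9 1 and 2 (log2 0.56, adjusted p = 0.0894). Cyld lies on chromosome 8, with its median log2 fold change of 0.31, and Tnfrsf1b on chromosome 4, with its median of 0.27. The part of these shifts in the 2 values was not tested. Ltb, a membrane-bound TNF relative, had 1.95 and 2.72 CPM in the controls and 0.996 and 0.829 CPM in UBXN9 1 and 2 (log2 -1.35, adjusted p = 0.0962). Mefv, which encodes the inflammasome sensor pyrin, had 2 and 4 counts in control 1 and 2 and 20 and 14 in UBXN9 1 and 2 (adjusted p = 0.0947). In all of these the libraries of the groups did not overlap, as in 50.6% of all genes tested.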
